A study of Mus musculus with 5 samples.

Results

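Regulators of G protein signalling (RGS proteins) switch off signals from G protein-coupled receptors. They speed the hydrolysis of GTP by the active G protein alpha subunit, which returns it to its resting, beta-gamma-bound form. In blood cells they dampen responses to chemokines, lipids and thrombin, and several are themselves induced when a cell is stimulated. The 8 genes described here are Rgs1, Rgs2, Rgs3, Rgs16 and Rgs18 of the R4 subfamily, Rgs10 and Rgs14 of the R12 subfamily, and Rgs19 of the RZ subfamily. Rgs1, Rgs2, Rgs16 and Rgs18 lie on chromosome 1, Rgs19 on 2, Rgs3 on 4, Rgs10 on 7 and Rgs14 on 13. They were taken by gene symbol from the deposited tables, as 8 of 21 genes named Rgs with a number and of 33894 genes in all. The group was chosen by the level of Rgs1, which was higher in every dKO library. The comparison between genotypes is therefore given for all 8 genes as a description, with errors and without p-values.

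Bulk RNA sequencing was done on haematopoietic stem cells sorted from the bone marrow of mice aged 8 weeks, as LSK cells (no lineage markers, Sca1 and c-Kit present) that lacked CD34 and Flt3. There were 2 wild type (WT) libraries and 3 labelled as Lrp5/6 double knockout (dKO), which carry Vav-cre with floxed alleles of both genes (Lrp5 fl/fl and Lrp6 fl/fl). Vav-cre drives Cre recombinase throughout blood cells, and Lrp5 and Lrp6 are co-receptors for Wnt ligands. Cre is named in the dKO group alone, so its effect and that of the lost genes cannot be told apart. Each library came from 6K cells. The labels do not say that each came from a separate animal, so the errors measure the spread between these libraries.

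Library totals ran from 16028512 counts in the library labelled dKO replicate 2 to 28027458 in WT replicate 2. That dKO library had the fewest detected genes, 12894, against 14750 to 16098 in the others, and correlated with the others at no more than 0.851 in log2 CPM (counts scaled to library size, with TMM factors). Lrp6 had 232 to 660 counts in WT and 260 to 790 in the dKO-labelled libraries, and Lrp5 had 7 and 32 in the former and 2 to 71 in the latter. Both targeted genes thus overlapped between the groups. Gene counts cannot show a lost exon, so every direction below rests on the labels.

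Markers of other blood cells were summed in each library. Megakaryocyte and platelet markers (7 genes, none at 0 throughout, 5 higher in every dKO-labelled library) came to 375 and 557 CPM in WT and 753 to 794 CPM in the dKO-labelled libraries. Markers of haematopoietic stem cells (8 genes, 3 of them higher throughout) came to 232 and 307 CPM and to 440 to 507 CPM. Dendritic cell markers (7 genes, 2 higher throughout and 1 lower) came to 180 and 197 CPM and to 296 to 570 CPM. Erythroid markers (7 genes) came to 96.6 and 101 CPM and to 156 to 179 CPM. The 4 gate genes came to 1315 and 2066 CPM in WT and to 2126 to 2209 CPM in the dKO-labelled libraries. Their sum adds genes that the gate requires to genes that it excludes, so it does not describe the gate. The 2 higher throughout were Kit, which is required, and Flt3, which is excluded. Of the erythroid markers Car1 alone was higher throughout, and without it the sums overlapped, at 90.0 and 94.9 CPM in WT and 85.8 to 116 CPM. Although the gate left out cells with CD34 and Flt3 on the surface, RNA of Cd34 was at 761 to 1212 CPM, with overlapping groups. Flt3, a gene looked up after its values were seen, was at 238 and 116 CPM in WT. In the dKO-labelled libraries Flt3 was at 338, 300 and 360 CPM. T and NK cell markers (10 genes, Cd3e at 0 throughout) were at 762 and 1910 CPM in WT and 600 to 757 CPM in the dKO-labelled libraries, most of it Nkg7, and without that gene their sums overlapped. Sums for B cells, granulocytes (Ly6g at 0 throughout), monocytes and mast cells overlapped between the groups. Among single genes, 3 of the 8 B cell markers were higher in every dKO-labelled library and 0 lower. Of the 10 granulocyte markers, 0 were higher and 2 lower in every such library. Of the 5 mast cell and basophil markers, however, 4 were higher throughout (Cpa3, Ms4a2, Prss34 and Fcer1a, named after their values were seen), and without Mcpt8 the sums were 104 and 61.9 CPM in WT and 224, 643 and 287 CPM in the dKO-labelled libraries. The sums without 1 gene were added after seeing the data. WT replicate 2 stood apart with 40590 CPM of granulocyte genes against 6373 to 15488 CPM elsewhere. The part of these other cells in the values of the Rgs genes was not tested, and in bulk RNA more cells of a type and more RNA per cell cannot be told apart.

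Promoter sequences are shown for the members whose libraries did not overlap between the groups and that have an entry in the RefSeq table (build GRCm38.p6). That table matched 5 of the 8 members, Rgs2, Rgs3, Rgs10, Rgs16 and Rgs19. The 250 bases before each annotated start are printed, 5′ to 3′ on the gene's own strand. Capitals mark matches to the motifs searched on both strands, which were the cyclic AMP response element TGACGTCA and its core TGACG, the AP-1 motif TGANTCA, the EGR motif GCGTGGGCG, the TCF/LEF motif ATCAAAG, the TATA motif TATAAA, the NF-kappaB consensus and the serum response element. The core TGACG lies within the full element TGACGTCA. The Rgs2 window is at chr1:144004150-144004399 on the minus strand, and the windows of the 2 annotated starts of Rgs3 are at chr4:62559597-62559846 and chr4:62619422-62619671 on the plus strand.
Rgs2: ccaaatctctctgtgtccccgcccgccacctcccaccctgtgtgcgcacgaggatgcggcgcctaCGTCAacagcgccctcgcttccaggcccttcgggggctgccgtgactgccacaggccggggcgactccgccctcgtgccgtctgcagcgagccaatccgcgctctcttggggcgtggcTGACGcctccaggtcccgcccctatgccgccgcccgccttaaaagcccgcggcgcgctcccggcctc
Rgs3, first start: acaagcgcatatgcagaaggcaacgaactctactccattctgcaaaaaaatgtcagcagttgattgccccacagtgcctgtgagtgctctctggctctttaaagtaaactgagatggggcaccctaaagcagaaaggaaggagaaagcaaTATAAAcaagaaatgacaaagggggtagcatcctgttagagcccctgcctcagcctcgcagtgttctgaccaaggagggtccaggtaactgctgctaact
Rgs3, second start: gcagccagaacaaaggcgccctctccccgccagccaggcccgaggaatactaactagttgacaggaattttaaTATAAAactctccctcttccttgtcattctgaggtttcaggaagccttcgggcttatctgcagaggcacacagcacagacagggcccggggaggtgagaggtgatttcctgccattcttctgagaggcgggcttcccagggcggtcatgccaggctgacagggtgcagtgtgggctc

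The Rgs2 window held the core TGACG 2 times, once on each strand, beginning 185 and 67 bases before the start. Of 32851 promoters in the table, 17.8% had this core in the same length. Both Rgs3 windows held TATAAA, beginning 100 and 177 bases before the start, a motif found in 12.4% of promoters. The windows differed in base composition, with 72.4% G and C for Rgs2 and 48.4% and 56.8% for the starts of Rgs3, against a median of 52.4% over the table. No motif searched was found in the windows of Rgs10, Rgs16 and Rgs19. The full cyclic AMP element (1.55% of promoters), the EGR motif (0.536%), the TCF/LEF motif (3.21%), AP-1 (6.75%), the NF-kappaB consensus (7.25%) and the serum response element (1.47%) had no match in any window of the 5 genes. A match or its absence describes these letters in this window and nothing of the factor.

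The level of each gene was read from the deposited TPM (transcript abundance), which is scaled by length and so lets genes be set side by side. The members fell into an abundant and a scarce tier. Rgs1 averaged 349 ± 179 TPM (SD, n = 5), Rgs18 293 ± 65.6, Rgs2 168 ± 61.5 and Rgs19 160 ± 44.5 TPM. The scarce tier held Rgs3 at 18.1 ± 9.10 TPM, Rgs10 at 18.0 ± 13.3, Rgs14 at 13.4 ± 5.81 and Rgs16 at 0.348 ± 0.746 TPM. The lowest value in the abundant tier, 94.99 TPM for Rgs2 in WT replicate 2, lay above the highest in the scarce tier, 40.1 TPM for Rgs10 in the library labelled dKO replicate 3. Neighbours within each tier had overlapping ranges, except that every library had more Rgs14 (at least 5.09 TPM) than the highest Rgs16 value, 1.68 TPM. Within a library Rgs18 lay above Rgs2 in 5 of 5, by 125 ± 34.3 TPM (SD of the differences), while the order of Rgs1 and Rgs18, of Rgs2 and Rgs19, of Rgs3 and Rgs10 and of Rgs10 and Rgs14 changed between libraries.

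Rgs18, a regulator best known from megakaryocytes and platelets, was first in both WT libraries, with 288 and 190 TPM. Rgs1, known from lymphocytes as a brake on chemokine signalling, was the third there with 153 and 160 TPM, and was first in all 3 libraries labelled dKO with 513, 427 and 492 TPM. Among all genes in the tables Rgs1 ranked 1348 and 1216 by TPM in WT and 293, 369 and 308 in the dKO-labelled libraries. The place of Rgs1 depends on the length used. When counts were divided by the transcript length of GENCODE M21 (3841 bases for Rgs1), Rgs1 averaged 144 RPKM (reads scaled to length and depth), below Rgs18 at 170 and beside Rgs2 at 144 and Rgs19 at 138 RPKM. These means pool the groups. By library Rgs1 had 65.4 and 66.9 RPKM in WT, the fourth of the members in both, and 208, 189 and 188 RPKM in the dKO-labelled libraries, where it ranked 1, 1 and 3.

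Rgs1, Rgs18, Rgs2 and Rgs19 together made up 92.9% to 95.1% of the TPM of all 21 Rgs genes in each library. The make-up within that total differed between the groups. Rgs1 was 19.8% and 25.0% of it in WT and 42.9%, 33.8% and 38.5% in the dKO-labelled libraries, a mean of 22.4 ± 3.68% (SD, n = 2) against 38.4 ± 4.57% (SD, n = 3). Rgs19 made up 23.2% and 25.6% in WT and 11.2%, 17.4% and 8.09% in the dKO-labelled libraries, and Rgs18 37.3% and 29.6% against 24.5%, 26.3% and 28.4%. Shares are parts of a fixed whole, so a higher Rgs1 can lower the share of another gene without a lower level of it. The TPM of Rgs18 was 288 and 190 in WT and 292, 332 and 363 in the dKO-labelled libraries. That of Rgs19 overlapped between the groups, at 179 and 164 against 134, 220 and 103. The share of Rgs2 was 14.1% and 14.8% in WT and 16.3%, 16.7% and 17.9% in the dKO-labelled libraries. The summed TPM of all Rgs genes was 707 ± 94.1 in WT and 1246 ± 44.9 in the dKO-labelled libraries, and without Rgs1 it was 550 ± 99.0 and 769 ± 79.4.

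**Figure D1:**
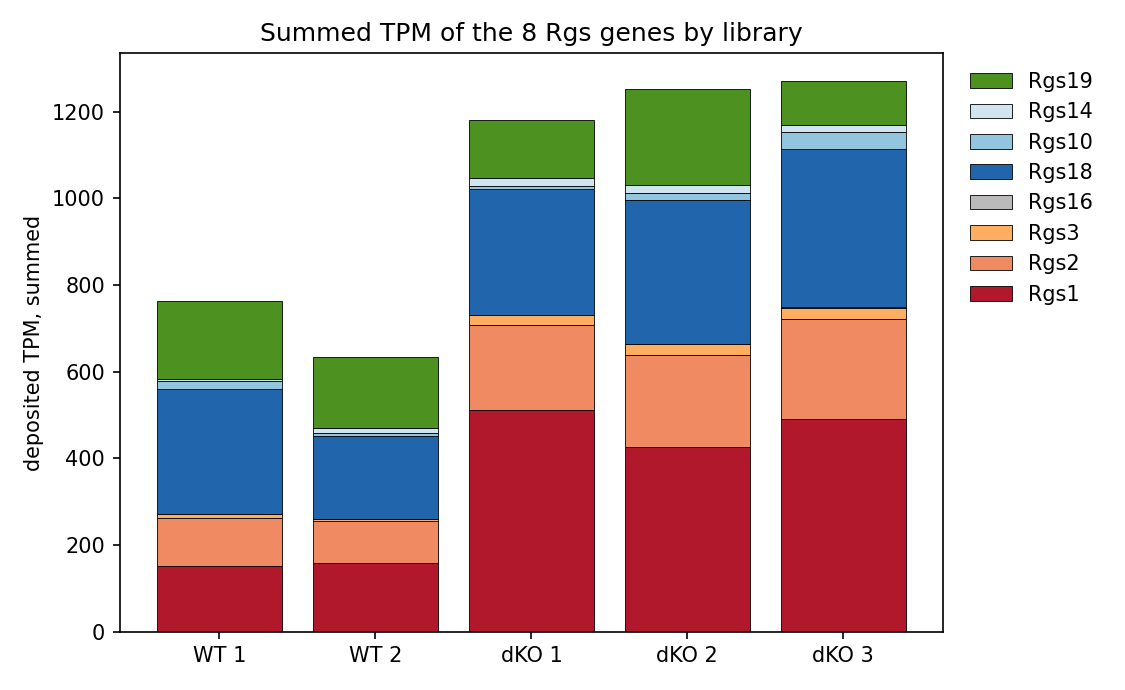
Deposited TPM of the 8 Rgs genes, stacked for each of the 5 libraries (vertical axis: summed TPM from 0; colours: genes). The Rgs1 segment is 153 and 160 TPM high in the WT libraries and 427 to 513 TPM in the dKO-labelled libraries.

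Among the R4 members, Rgs1 measured 250 and 289 CPM in WT replicates 1 and 2 and 744, 704 and 719 CPM in the dKO-labelled libraries replicates 1, 2 and 3. The lowest of the latter was 2.44 times the higher WT value, and the 3 libraries labelled dKO lay within 1.06 times of each other. The fitted log2 fold change by edgeR was 1.42 ± 0.18 (SE), a 2.68-fold higher level with a 95% interval of 2.02 to 3.56. This is the gene and the difference on which the group was picked, so its size is a description.

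Rgs2, which acts preferentially on the Gq class of alpha subunits, was at 166 and 169 CPM in WT and at 266, 309 and 378 CPM in the dKO-labelled libraries. Every library labelled dKO lay above both WT libraries, the nearest being 1.58 times the higher WT value. The fitted log2 fold change was 0.93 ± 0.21 (SE; 95% interval 0.44 to 1.42), or 1.90-fold. The WT libraries differed by less than those labelled dKO, whose highest value was 1.42 times their lowest.

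Rgs18 did not separate the groups in CPM, with 343 and 261 CPM in WT and 314, 361 and 436 CPM in the dKO-labelled libraries. Its log2 fold change was 0.30 ± 0.22 (SE; 95% interval -0.21 to 0.80). Leaving out WT replicate 1 gave 0.50, leaving out WT replicate 2 gave 0.11, and leaving out dKO replicate 3 gave 0.16. In TPM its lowest value in the dKO-labelled libraries, 292, was 1.015 times the higher WT value, 288. Megakaryocyte markers, in contrast, did not overlap between the groups in their sum, as given above.

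Rgs3, the R4 member with long forms that carry other domains, was at 22.2 and 13.5 CPM in WT and at 25.4, 26.0 and 25.4 CPM in the dKO-labelled libraries. The values in the dKO-labelled libraries lay above both WT values, but by 1.14 times at the nearest, and the raw counts overlapped. Its log2 fold change was 0.52 ± 0.41 (SE; 95% interval -0.43 to 1.47), but 0.92 when WT replicate 1 was left out and 0.20 when WT replicate 2 was. The deposited TPM gave a larger gap for Rgs3, with 10.8 and 6.15 in WT and 22.2, 24.6 and 26.9 in the dKO-labelled libraries, a ratio of means of 2.89 against 1.43 in CPM. A non-coding antisense gene, Gm11209, overlaps Rgs3, and without strand their reads cannot be told apart.

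Rgs16, an R4 member induced in activated lymphocytes, was close to absent. It had 0 counts in both WT libraries and in the library labelled dKO replicate 2, 3 counts in dKO replicate 1 and 52 counts (1.93 CPM) in dKO replicate 3. The 52 counts came from 1 library, and the gene did not pass the filter on low counts. A count of 0 allows up to 0.114, 0.120 and 0.181 CPM in those libraries (3 counts, TMM-scaled, for counting error alone). An antisense gene, Gm28513, overlaps Rgs16.

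Of the R12 members, Rgs14, which binds Gi alpha subunits through a second motif besides its RGS domain, was at 6.57 and 15.0 CPM in WT and at 21.9, 23.5 and 20.8 CPM in the dKO-labelled libraries. The groups did not overlap, and the WT libraries differed by more than the 3 libraries labelled dKO, which lay within 1.13 times of each other. The log2 fold change was 1.03 ± 0.51 (SE; 95% interval -0.15 to 2.22), but 0.55 when WT replicate 1 was left out and 1.74 when WT replicate 2 was.

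Rgs10, a short RGS protein known from macrophages and microglia, was the most variable tested member. It was at 9.84 and 5.29 CPM in WT and at 2.40, 7.55 and 22.6 CPM in the dKO-labelled libraries, so that those 3 spanned a 9.42-fold range around both WT values. The log2 fold change was 0.52 ± 0.95 (SE; 95% interval -1.69 to 2.73) and turned to -0.60 without dKO replicate 3. Leaving out WT replicate 1 gave 1.02, leaving out WT replicate 2 gave 0.14, and leaving out dKO replicate 1 gave 0.996. In that library B cell markers (8 genes, none at 0 throughout) summed to 326 CPM against 110 to 239 CPM elsewhere, and dendritic cell markers to 570 CPM against 180 to 300 CPM, while monocyte and macrophage markers (7 genes) stood at 133 CPM against 122 to 151 CPM in WT and dKO replicate 1 and 305 CPM in dKO replicate 2. Their part in the Rgs10 and Rgs16 values of that library was not tested. A processed transcript on the same strand, Gm15503, overlaps Rgs10, and reads they share cannot be told apart.

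Rgs19, the RZ member, also called GAIP, was at 184 and 199 CPM in WT and at 154, 200 and 177 CPM in the dKO-labelled libraries. The groups overlapped, and the log2 fold change was -0.11 ± 0.20 (SE; 95% interval -0.57 to 0.34), the 1 negative value among the tested members. It ran from -0.20 without dKO replicate 2 to -0.02 without dKO replicate 1. Counts and TPM differed in the dKO-labelled libraries, where the highest value was 1.298 times the lowest in CPM and 2.13 times in TPM (134, 220 and 103 TPM). The sources used here do not say how TPM was computed.

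**Figure D2:**
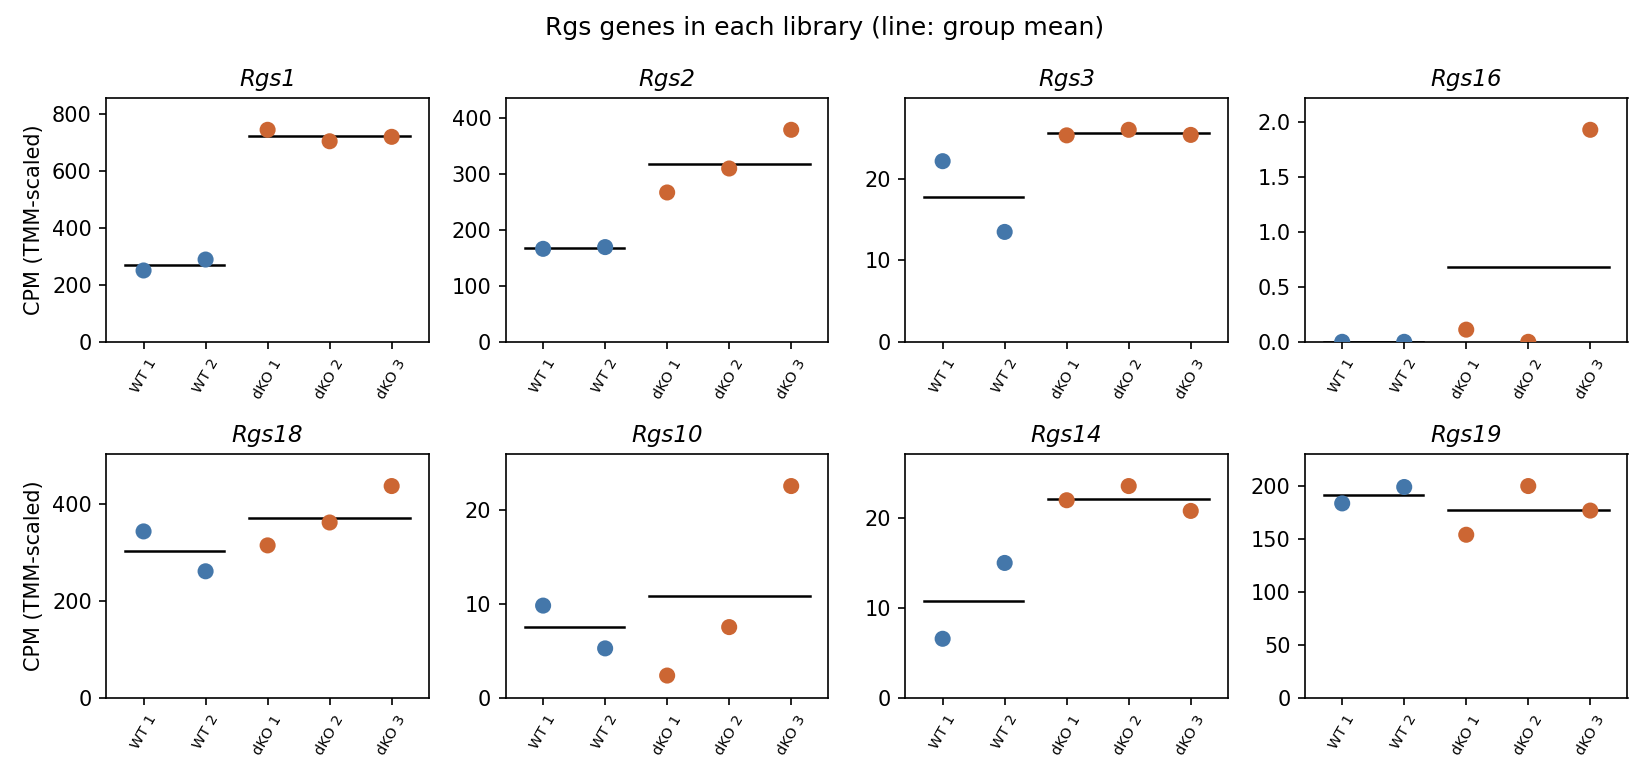
TMM-scaled CPM of each Rgs gene in the 2 WT libraries (blue) and the 3 libraries labelled dKO (orange), with each panel's vertical axis starting at 0 and a black line at the group mean. Rgs1, Rgs2, Rgs3 and Rgs14 have every orange point above both blue points, and Rgs10 spans 2.40 to 22.6 CPM among the orange points.

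Of the 8 members, 7 passed the filter on low counts. Every library labelled dKO lay above both WT libraries for 4 of these 7 (Rgs1, Rgs2, Rgs3 and Rgs14), against 13.7% of all 13696 genes tested, and below for 0, against 15.6%. Rgs1 is among the 4 by choice, and nothing is read from this count. The median log2 fold change of the 7 was 0.52, with 6 above 0, against a median of 0.04 and 52.2% above 0 over all genes tested. In the quasi-likelihood test of edgeR, with p adjusted by Benjamini-Hochberg, 0 of the 7 members and 0 of 13696 genes were called higher (0%) or lower (0%), although 677 genes had a higher and 711 a lower value at an unadjusted p under 0.05. DESeq2 called 1.12% of all genes higher and 0.664% lower. Its calls held 2 members, Rgs1 and Rgs2, both higher. Since the choice of members rests on the same libraries, nothing is read from these calls. The fit by limma-voom with quality weights called 0 genes.

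**Figure D3:**
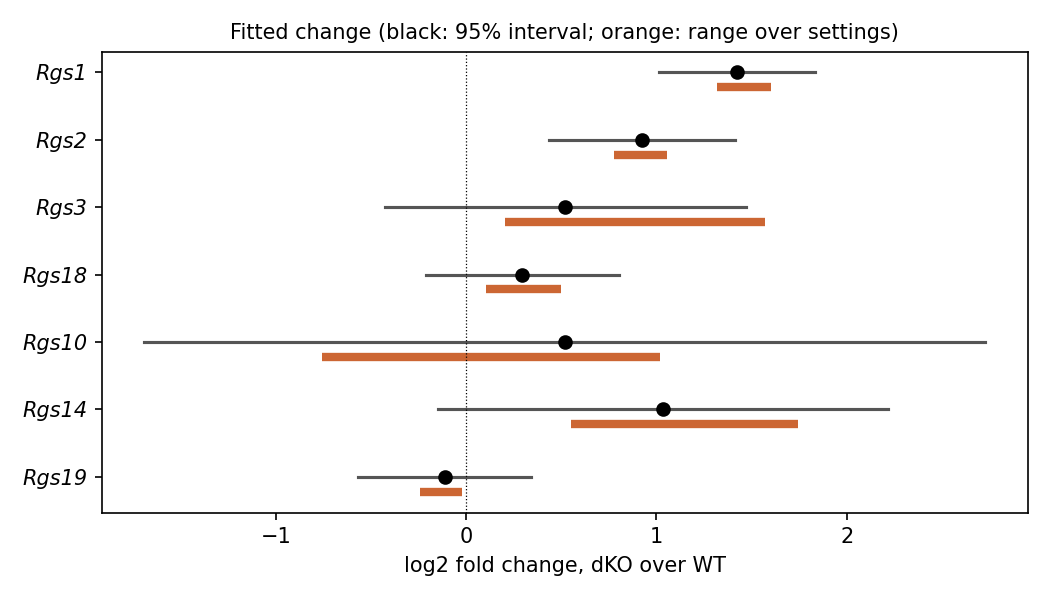
Fitted log2 fold change of the 7 tested Rgs genes, dKO over WT (horizontal axis; black point with its 95% interval) and, in orange, the lowest to the highest value over all settings tried. The orange bar of Rgs1 runs from 1.32 to 1.60 and that of Rgs10 from -0.76 to 1.02, across 0.

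Rgs1, Rgs2, Rgs18, Rgs13 and Rgs21 stand next to each other on mouse chromosome 1. Rgs13, between Rgs2 and Rgs1, and Rgs21, between Rgs1 and Rgs18, had 0 counts in every library. The values of the row were therefore carried by Rgs2, Rgs1 and Rgs18, whose log2 fold changes were 0.93, 1.42 and 0.30. The 10 nearest protein-coding genes on each side of Rgs1 (order in GENCODE M21) include 18 that are not members, of which 11 passed the filter on low counts.

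These 11 neighbours went both ways. In CPM, 2 were higher in every library labelled dKO and 3 lower, while 6 overlapped. Of all genes tested, 13.7% were higher and 15.6% lower in every such library. The median log2 fold change of the 11 was 0.13, against 0.04 over all genes tested. Ptgs2, the inducible cyclooxygenase that makes prostaglandin precursors, was at 6.80 and 6.77 CPM in WT and at 13.7, 18.0 and 32.2 CPM in the dKO-labelled libraries (log2 fold change 1.65 ± 0.56, SE). Trove2, which encodes the Ro autoantigen, was at 6.31 and 4.73 CPM and at 22.2, 14.7 and 10.6 CPM (1.52 ± 0.61). Pla2g4a, the phospholipase that frees arachidonic acid, was lower in the dKO-labelled libraries, at 283 and 164 CPM in WT against 127, 144 and 118 CPM (-0.79 ± 0.26). Uchl5, a deubiquitinase of the proteasome, was at 243 and 338 CPM in WT against 173, 181 and 229 CPM (-0.58 ± 0.22), and Glrx2, a glutaredoxin, had a log2 fold change of -0.41 ± 0.36. Cdc73, BC003331, Tpr, B3galt2 and Prg4 were among the 6 that overlapped. The smallest adjusted p by edgeR was 0.438, so 0 of the 11 were called by it and 0 by DESeq2. By edgeR, 2 higher and 2 lower values had an unadjusted p under 0.05, against 677 and 711 of all 13696 genes tested.

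**Figure D4:**
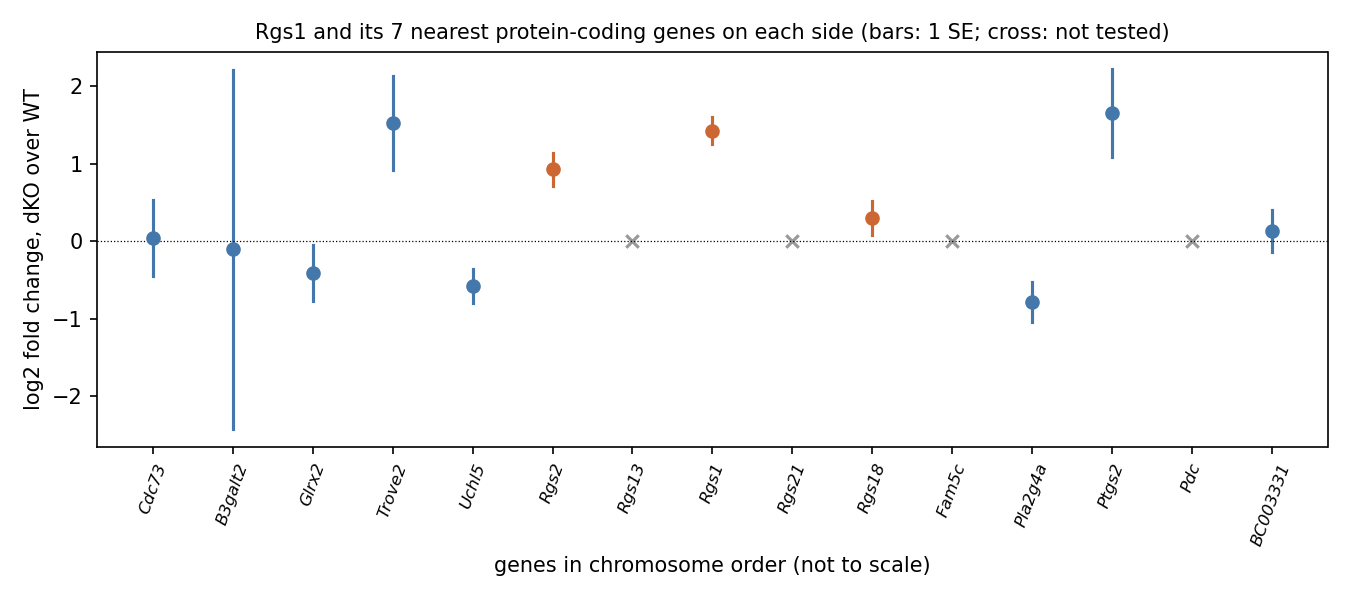
Log2 fold change, dKO over WT (vertical axis; bars are 1 SE), of Rgs1 and the 7 nearest protein-coding genes on each side, placed in chromosome order and not to scale (orange: Rgs members, blue: other tested genes, cross: not tested). Ptgs2 and Trove2 lie above 0, and Pla2g4a and Uchl5 below it, with 1 of each pair on either side of the Rgs genes.

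The genes whose pattern over the 5 libraries was most like that of Rgs1 were found by the root mean square difference in log2 CPM after each gene was centred on its own mean. The nearest 6 of 13695 other tested genes, leaving out members, differed from Rgs1 by 0.08 to 0.15. They were Gsn, the actin-severing protein gelsolin, 4930481A15Rik, Zc3h12a, an RNase that degrades inflammatory transcripts, 1700009P17Rik, Zfp36l1, which promotes decay of AU-rich transcripts, and the chemokine Ccl3. Gsn was at 10.6 and 11.9 CPM in WT and at 27.8, 29.5 and 27.3 CPM in the dKO-labelled libraries. Zfp36l1 was at 10.2 and 12.02 CPM in WT and at 28.4, 27.4 and 36.2 CPM. Of the other members, Rgs2 ranked 130th by this measure (0.31), Rgs14 195th (0.34) and Rgs3 1058th (0.51), while Rgs10 ranked 10308th (1.28). Genes were ranked against Rgs1 on the same libraries that led to its choice, so the list is a description.

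Other RGS proteins were scarce. Of the 13 other Rgs genes, 5 (Rgs7, Rgs13, Rgs17, Rgs20 and Rgs21) had 0 counts throughout and 2, Rgs11 and Rgs12, passed the filter, both overlapping between the groups. No other Rgs gene exceeded 9.04 TPM in any library. Of 13 tested genes for other proteins with an RGS domain, 9 were on the higher and 4 on the lower side (median log2 fold change 0.18, from 0.023 without dKO replicate 3 to 0.40 without dKO replicate 2). In every library labelled dKO 3 were higher (23.1%) and 1 lower (7.69%), against 13.7% and 15.6% of all genes tested. The lower gene was Grk5, a receptor kinase named after its values were seen, at 2.85 and 4.61 CPM in WT and at 0.516, 0 and 1.67 CPM. Arhgef12, an exchange factor for small GTPases driven by the G12 class of alpha subunits, was at 9.50 and 6.09 CPM in WT and at 16.3, 22.2 and 22.4 CPM in the dKO-labelled libraries. Arhgef11, its close relative, stood at 4 and 10 counts in WT against 132, 207 and 85 in the dKO-labelled libraries. Arhgef1, of the same class, was at 55.6 and 52.8 CPM in WT but at 126, 164 and 52.1 CPM in those libraries, so the groups overlapped.

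Next came the G protein subunits on which RGS proteins act. Of 12 tested alpha subunits 8 were on the higher side (median 0.19 in log2 fold change, and 0.53 without WT replicate 1), with 2 higher (16.7%) and 1 lower (8.33%) in every library labelled dKO. Gnai3, the alpha subunit with the highest mean TPM, was at 284 and 282 CPM in WT and at 241, 183 and 284 CPM in the dKO-labelled libraries. Gnai2, the Gi subunit prominent in leukocytes, was at 119 and 103 CPM in WT and lower in every library labelled dKO, at 82.3, 90.8 and 93.7 CPM. Of the 4 tested Gq class members Gnaq and Gna11 were higher in every library labelled dKO, and Gna14 and Gna15 overlapped between the groups. Gna11 was at 27.4 and 13.5 CPM in WT against 42.1, 38.4 and 58.9 CPM, a log2 fold change of 1.18 ± 0.43 (SE), and Gnaq had 0.39 ± 0.31. Beta and gamma subunits had a median of -0.03 over 10 tested genes. Of these, Gng2 was at 66.9 and 49.3 CPM in WT against 95.3, 78.3 and 103 CPM in the dKO-labelled libraries, and Gnb1 and Gng5 overlapped.

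Upstream of the G proteins, 48 of 64 receptors of blood cells were tested, and 31 of them had a higher and 17 a lower value (median log2 fold change 0.36, and 0.36 with the 3 genes at 0 in a group set to their bound). It was 0.83 without WT replicate 1 and 0.21 without dKO replicate 3. The groups did not overlap for 4 receptors in each direction, 8.33% of those tested, against 13.7% above and 15.6% below over all genes tested. F2r, the thrombin receptor PAR1, was at 27.1 and 20.4 CPM in WT and at 57.1, 101 and 85.7 CPM in the dKO-labelled libraries (log2 fold change 1.77 ± 0.35, SE). Gpr171, the receptor with the highest mean TPM, overlapped between the groups. Adora3 stood at 43 and 20 counts in WT against 0 in each library labelled dKO, although its deposited TPM is listed at 0 throughout. Cxcr4, the homing receptor for the chemokine Cxcl12 which was named after its values were seen, was at 4.71 and 9.86 CPM in WT and at 7.52, 7.74 and 13.3 CPM in the dKO-labelled libraries, with overlapping groups.

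Downstream, 25 of 30 effectors were tested, with 16 higher and 9 lower values and a median of 0.24, which ran from 0.13 without dKO replicate 1 to 0.48 without WT replicate 2. Every library labelled dKO lay above WT for 3 of them (12%) and below for 1 (4%). Pde4b, a phosphodiesterase that breaks down cyclic AMP, was at 187 and 148 CPM in WT and at 300, 349 and 457 CPM in the dKO-labelled libraries (log2 fold change 1.13 ± 0.24, SE). Plcb4, a phospholipase C activated by Gq, was at 7.49 and 7.09 CPM in WT against 13.9, 20.5 and 18.8 CPM. Pik3r6 and Prkar1a, the effector with the highest mean TPM, overlapped between the groups. Of 9 tested arrestins and accessory proteins 7 were on the higher side (median 0.23, from 0.081 without WT replicate 2 to 0.50 without WT replicate 1), and all 9 overlapped between the groups.

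In the adjusted quasi-likelihood test of edgeR, 0 genes of these lists were called. At an unadjusted p under 0.05 by edgeR, 3 of 13 other RGS-domain proteins, 1 of 12 alpha subunits and 1 of 10 beta and gamma subunits were higher. So were 2 of 25 effectors, while of 48 receptors 1 was higher and 2 lower. Of all 13696 genes tested, 677 were higher and 711 lower at this threshold. DESeq2 called Arhgef11, F2r and Pde4b higher, and limma-voom with quality weights called 0. Immediate early genes, the first transcripts a stimulated cell makes, gave another pattern. All 19 tested were on the higher side (median 1.28), against 52.2% of all genes tested. In every library labelled dKO 15 were higher (78.9%), against 13.7% of all genes tested. Jun was at 437 and 377 CPM in WT and at 970, 1101 and 896 CPM in those libraries. The list was known to be higher before it was chosen and is no independent support.

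**Figure D5:**
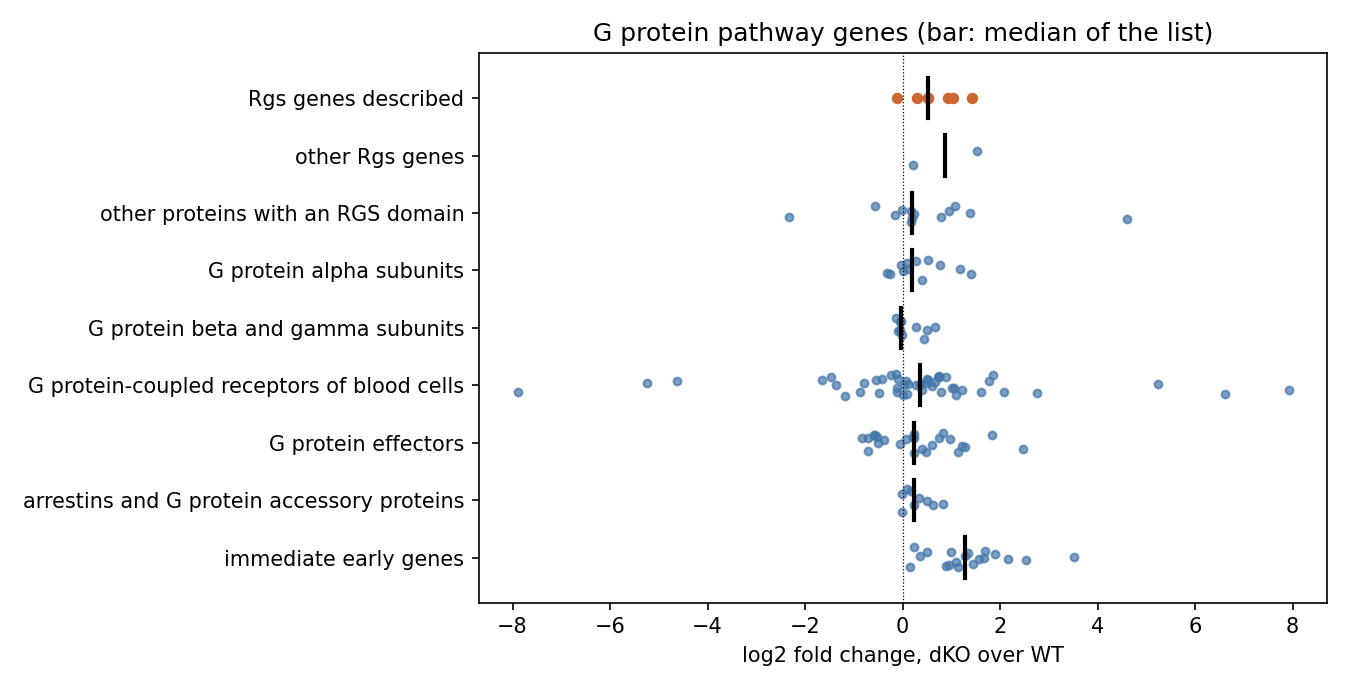
Log2 fold change, dKO over WT (horizontal axis), of each tested gene of the G protein pathway lists and of immediate early genes (blue) and of the 7 tested Rgs genes (orange), with a bar at each list's median. Receptors centre on 0.36 and beta and gamma subunits on -0.03, and points beyond 4 either way are genes with almost no counts in 1 group.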

How the data were processed

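Per the labels' protocols, RNA from 6K sorted cells a library was amplified by Smart-seq2, whose standard form does not mark strand. The deposited files give raw counts per gene and, separately, TPM as the authors computed it. Tools listed by the submitters' notes are RSEM 1.2.31, HTSeq, TopHat2 2.1.1, DESeq2, Trimmomatic and FastQC 0.11.5, with build mm9, without saying which made which values. Of 33924 entries a file, 30 had no gene name (0.216% to 0.269% of counts) and were dropped.

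Counts were fitted with edgeR 4.0.16 in R 4.3.3 (TMM, filterByExpr, robust quasi-likelihood, adjusted p under 0.05, 5 libraries, no covariate). Alternatives used DESeq2 1.42.0, limma-voom with quality weights (limma 3.58.1), RLE or upper quartile scaling, no filter or 5 CPM in 2 libraries, limma on log2(TPM + 1) or log2(TPM + 0.1) with 1 TPM in 2 libraries, a block for the replicate number, and fits without each library in turn. RPKM used median protein-coding transcript lengths of GENCODE M21 (GRCm38), which also gave gene order.

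The members, lists and tests were chosen with earlier results of these data known. Named genes are the members, Lrp5 and Lrp6, each list's gene of highest TPM and up to 3 of smallest p, tested neighbours, and the 6 genes nearest to Rgs1. From the marker lists, the 2 genes of highest CPM could be named. Values of some genes are not reported here.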

Additional observations from a re-analysis of the deposited data

How the results depend on the processing

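The log2 fold change of Rgs1 was 1.60 on log2(TPM + 1) and 1.60 on log2(TPM + 0.1), and ran from 1.32 to 1.52 when 1 library was left out. Rgs2, Rgs3, Rgs14 and Rgs18 stayed above 0 and Rgs19 below 0 in all 15 fits. Rgs10 turned to -0.28 with limma-voom with quality weights and -0.60 without dKO replicate 3, the lowest of its values with a library left out, which reached 1.02. The cause was not tested. Members that did not overlap with the libraries labelled dKO below numbered 0 to 1 when a library was left out, the 1 being Rgs19 without dKO replicate 2, where 20.4% of all genes tested lay below. Those above numbered 4 to 5, where 19.7% to 25.9% of all genes did, and 5 in TPM, where 18.6% did.

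Genes called higher and lower were 154 and 91 with DESeq2, 5 and 3 without a filter on low counts, 3 and 2 on log2(TPM + 1), 2 and 0 on log2(TPM + 0.1), and 0 to 2 and 0 to 3 when 1 library was left out. Members called were 2 with DESeq2, 1 without a filter and 1 on log2(TPM + 1), beside the counts over all genes just given. For DESeq2 those counts were 1.12% of all genes tested higher and 0.664% lower. Since the members were chosen on the same libraries, nothing is read from their calls. The alternatives for members called, and the count in TPM, were added after seeing the data. DESeq2 called 1 gene each among other RGS-domain proteins, receptors and effectors, and 9 immediate early genes. The rank of Rgs1 was 3 in RPKM and 3 in the WT libraries.

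The median of beta and gamma subunits turned positive, to 0.085 with limma-voom with quality weights, 0.012 with 5 CPM in 2 libraries, 0.14 on either TPM scale, and ran from -0.032 to 0.34 when 1 library was left out, negative without dKO replicate 3 alone. With the replicate number as a block it was 0.021, Rgs10 stood at -0.76, 1 gene was called higher (Nr4a1, an immediate early gene) and 0 lower. The labels do not say that a number marks a shared animal or day. Same-numbered libraries deviated together at r = 0.03 and 0.05. With 2 WT libraries, the deviations of 1 are the exact opposite of the other's. These values therefore cannot decide whether same-numbered libraries share more than a number. The 2 fits without a WT library rest on 1 WT sample that is assumed to vary like the others. A gene at 0 has an upper limit of 0.111 to 0.181 CPM.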
